A study of Rattus norvegicus with 9 samples.

Results

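Blood that had met either of 2 hemostatic materials was compared with untreated blood: the 6 libraries of rat whole blood incubated with a DNA hydrogel (DNAgel, 3 libraries) or with a gelatin sponge (GS, 3 libraries) were taken as one side, and the 3 libraries of untreated blood (Control) as the other. The 9 libraries are all those of the series, and the question was which genes moved the same way with both materials. Each material was in contact with fresh blood for 15 min before RNA was extracted. The sources give the Control no such time, so that contact with a material and time outside the body cannot be told apart in this comparison. Nor do they state how many rats gave blood for each group, and p-values therefore describe the spread between these libraries, which may be technical. Of 12854 genes in the deposited table, 3561 had FPKM (reads scaled for gene length and library total) over 0.1 in at least 3 of the 9 libraries and were tested.

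A hemostatic material works at first contact: plasma proteins coat its surface, platelets adhere to it, change shape through their actin cytoskeleton and aggregate, and red cells are trapped in the growing clot. Platelets and mature red cells have no nucleus, so their messages of nuclear genes can be lost or degraded but not newly transcribed. White cells can switch on immediate-early genes within minutes. RNA of whole blood is dominated by hemoglobin messages of reticulocytes, the youngest red cells. Each value is the average over all these cells, and in such bulk samples fewer cells of a type and less RNA per cell cannot be told apart.

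The libraries held 51838917 to 68076324 estimated counts. The 9 hemoglobin genes took 95.9% ± 0.326 of the counts with the materials and 95.5% ± 0.457 in Control (SD, n = 6 and n = 3), a difference that did not pass the exact two-sided permutation test (p = 0.167). Counts of all other genes came to 2344910 to 2772356 with the materials and 2779554 to 3216776 in Control, with no overlap (exact permutation test, p = 0.0238, the smallest that 6 against 3 libraries allow); this measure was chosen after its values were seen. The counts of other genes were not scaled for depth, and DNAgel replicate 2, at 2393802, had the smallest library. As a share of each library they are what hemoglobin leaves, so that the share overlapped and did not pass the test. The number of genes with a count above 0 was 6665 ± 388 with the materials and 7428 ± 857 in Control (exact permutation test, p = 0.167). Red cell and platelet markers were abundant: Alas2, the enzyme that starts heme synthesis in red cells, stood at 1520 to 1991 CPM with the materials and 1597 to 1704 CPM in Control, and Pf4, a chemokine of platelet granules, at 208 to 288 CPM with the materials and 233 to 289 CPM in Control. Throughout, CPM are counts scaled to the library total by TMM, with hemoglobin included. Of the monocyte markers, Cd14 was at 0 in all libraries but DNAgel replicate 1. Csf1r had 0.723 to 0.940 CPM with DNAgel, 0, 0 and 0.427 CPM with GS, and 0.657 to 0.855 CPM in Control. Of the neutrophil markers, S100a9 stood at 6.12 to 8.61 CPM with the materials and 5.21 to 6.57 CPM in Control. S100a8 went the other way on average, with means of 2.55 and 2.74 CPM and ranges of 2.06 to 3.28 and 2.52 to 3.07 CPM.

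The groups did not separate the libraries. Over the 940 genes with a mean FPKM of at least 1, Pearson's r between log2(CPM + 0.5) of 2 libraries was 0.953 to 0.977 within groups (9 pairs) and 0.953 to 0.987 between groups (27 pairs). For 8 of the 9 libraries the most similar library belonged to another group. The highest values joined DNAgel replicate 2 with Control replicate 1 (0.987), DNAgel replicate 3 with GS replicate 2 (0.987) and with Control replicate 2 (0.985), and GS replicate 2 with Control replicate 2 (0.985). These are correlations across genes, which are not independent replicates.

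**Figure D1:**
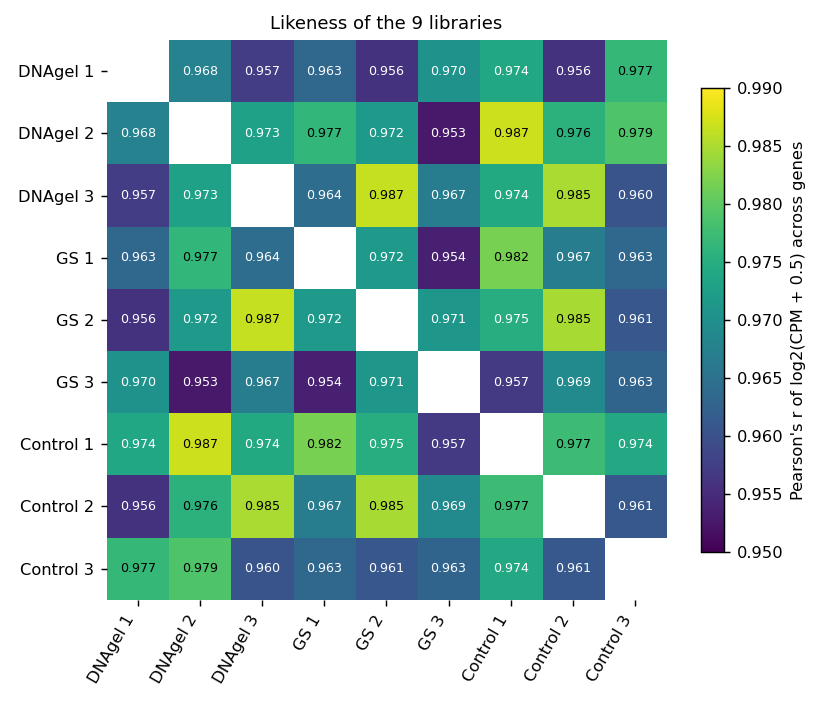
Pearson's r of log2(CPM + 0.5) across 940 genes for each pair of the 9 libraries (rows and columns: DNAgel, GS and Control, replicates 1 to 3), on a color scale of 0.95 to 0.99. The brightest cells, up to 0.987, join libraries of different groups.

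No gene moved the same way with both materials. The rule asked for an adjusted p under 0.05 in the pooled comparison and, with the same sign, an unadjusted p under 0.05 with each material, and edgeR's quasi-likelihood test found 0 such genes among 3561. In the pooled comparison itself 0 genes were higher (0%) and 1 was lower (0.0281%) at an adjusted p under 0.05, while an unadjusted p under 0.05 was reached by 72 on the high side (2.02%) and 140 on the low side (3.93%), together 5.95% of the genes tested. No gene passed an adjusted p under 0.05 with each material (0%). The median standard error of a pooled log2 fold change was 0.36 over all genes tested and 0.16 over the 940 genes with a mean FPKM of at least 1. With other tools the count of genes that moved with both materials was 2 by DESeq2 (1 of them Ccdc90b), 1 by limma on log2(FPKM + 0.1) (Pdcd5) and 2 by edgeR with no filter on low values (Hpx and ENSRNOG00000047067); it was 1 without Control replicate 3 (Hpx). No gene was called by all of these, and those named are described below with their values. With no filter, edgeR's p-values for the hemostatic genes that the study names were those of a normal distribution. The spread was thus treated as known, and p-values in that setting may be too small.

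Each material was also set against the same 3 Control libraries, so the 2 single comparisons share their reference and their fold changes are not independent of each other. DNAgel against Control gave 0 genes at an adjusted p under 0.05 (edgeR; lowest adjusted p 0.522). Before adjustment 54 genes (1.52%) lay above and 81 (2.27%) below at p under 0.05. DESeq2 called 5 genes and limma on log2(FPKM + 0.1) called 0. GS against Control gave 1 gene higher (0.0281%) and 22 lower (0.618%) by edgeR, and before adjustment 91 above (2.56%) and 224 below (6.29%). Deviations of same-numbered GS and Control libraries correlated at 0.266 to 0.486, which does not establish a pairing. With the replicate number as a block 0 genes were higher and 9 lower. In a fit of the GS and Control libraries alone, 0 were higher and 6 lower without the block and 0 and 0 with it. The GS count also fell to 4 lower without Control replicate 1 or Control replicate 2, to 7 without Control replicate 3 and to 5 without GS replicate 1. At an unadjusted p under 0.05 with each material and the same sign, 15 genes were higher (0.421%) and 12 lower (0.337%), of which 10 (0.281%) and 6 (0.168%) also had no overlap between the 6 material and the 3 Control libraries. The first 2 counts were 28 and 22 without DNAgel replicate 2. Without Control replicate 1, 2 or 3 they were 26, 26 and 23 higher and 5, 10 and 8 lower, and 6 were lower without GS replicate 3. With library totals as the only scaling they were 7 and 24.

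The 1 gene called in the pooled comparison was a gene of GS alone. ENSRNOG00000067483, a protein-coding gene with no symbol in the table (chromosome 1, 23638268 to 23638719, + strand), had 0.845, 0.931 and 1.07 CPM with DNAgel, 0, 0 and 0 CPM with GS, and 0.733, 1.03 and 0.761 CPM in Control. DNAgel and Control overlapped and only the 3 GS libraries lay apart, with 0 counts against 179 with DNAgel and 176 in Control. Its fitted pooled log2 fold change of −4.29 ± 0.49 (SE; adjusted p = 0.00607, edgeR) is the mean of 0.17 with DNAgel and −8.75 with GS, where the GS value is set against a group at 0 and is no measure of size. The adjusted p was 0.0527 without Control replicate 2 and 0.0629 with the replicate block, and with the materials fitted as 1 group it was 0.997, at a log2 fold change of −0.82.

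**Figure D2:**
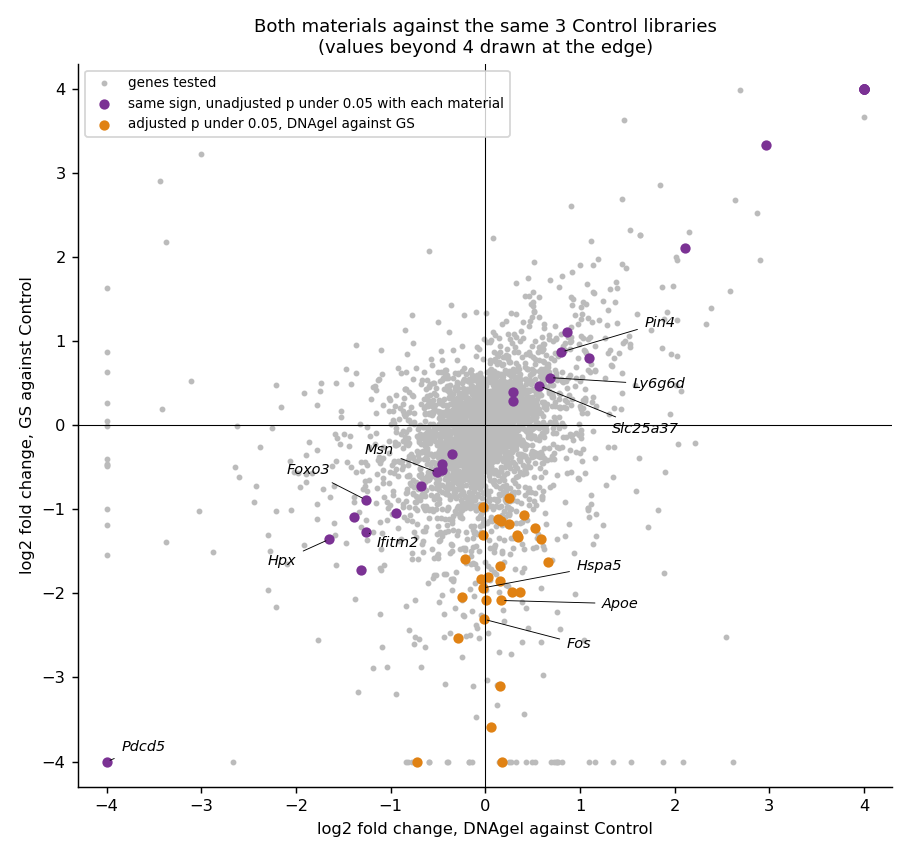
Log2 fold change of DNAgel against Control (x axis) and of GS against Control (y axis) for the 3561 genes tested, each with the same 3 Control libraries. Purple points are the 27 genes with an unadjusted p under 0.05 and the same sign with each material, orange points the 29 genes with an adjusted p under 0.05 for DNAgel against GS, all of them higher with DNAgel; values beyond 4 are drawn at the edge.

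Among genes whose 6 material libraries all lay on one side of the 3 Control libraries, 37 lay above (1.04% of the genes tested) and 47 below (1.32%). Of the 84 splits of 6 against 3 libraries, 1 puts all 6 above and 1 puts all 6 below. Shares close to these are therefore expected by chance alone, and a lack of overlap does not mark a gene as changed. With library totals as the only scaling they were 15 and 87, since that scaling moves the median pooled log2 fold change of all genes from −0.05 to −0.18. Leaving out any 1 of the 9 libraries gave 54 to 98 above and 66 to 127 below. None of them passed the adjusted threshold in the pooled comparison, and those named here are given as values.

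Slc25a37, which encodes mitoferrin 1, the carrier that brings iron into the mitochondria of developing red cells, had 3.30, 4.15 and 3.34 CPM with DNAgel, 3.56, 3.31 and 3.18 CPM with GS, and 2.44, 2.16 and 2.66 CPM in Control. The lowest material library lay above the highest Control library, and the 2 materials overlapped. The pooled log2 fold change was 0.52 ± 0.16 (SE; 95% interval 0.20 to 0.84), or 1.43-fold, with an adjusted p of 0.696 by edgeR. DNAgel and GS gave log2 fold changes of 0.57 and 0.47, and the difference between them was 0.10 with an interval of −0.26 to 0.47. Ly6g6d, of the Ly6 family of small surface proteins, had 3.49, 4.01 and 3.04 CPM with DNAgel, 2.99, 3.12 and 3.63 CPM with GS, and 1.79, 2.14 and 2.63 CPM in Control. Its groups did not overlap either, at a pooled log2 fold change of 0.62 ± 0.18 (1.54-fold; adjusted p = 0.594, edgeR). Pin4, a peptidyl-prolyl isomerase of the parvulin type, had 0.988, 1.17 and 1.05 CPM with DNAgel, 1.16, 0.827 and 1.39 CPM with GS, and 0.703, 0.507 and 0.628 CPM in Control. The pooled log2 fold change of Pin4 was 0.84 ± 0.27 (1.79-fold; adjusted p = 0.696, edgeR), with no overlap.

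Smaller differences without overlap were found in more abundant genes. Ube2d3, a ubiquitin-conjugating enzyme, had 17.1, 18.8 and 18.5 CPM with DNAgel, 18.3, 16.3 and 19.7 CPM with GS, and 16.1, 15.2 and 13.02 CPM in Control, a pooled log2 fold change of 0.29 ± 0.11. The gap between the lowest material library and the highest Control library was small. Map1lc3b, which encodes the autophagosome protein LC3B, ranged from 65.0 to 87.5 CPM with the materials and from 59.7 to 62.5 CPM in Control (0.26 ± 0.11). Rpl32, of the large ribosomal subunit, ranged from 34.9 to 41.2 CPM with the materials and from 30.2 to 33.5 CPM in Control (0.25 ± 0.10). Both lay nearer to Control with DNAgel than with GS: the log2 fold changes were 0.17 and 0.36 for Map1lc3b and 0.20 and 0.31 for Rpl32. The others named by the same rule were Dnajc8, a DnaJ-family protein (0.31), Tmem128, a transmembrane protein (0.52), Epn1, an adaptor of clathrin-coated vesicles (0.23), and Phospho1, a phosphatase of phosphocholine (0.23). The adjusted p of these 7 genes lay between 0.767 and 0.858 by edgeR. Rpl11, of the large ribosomal subunit, passed an unadjusted p under 0.05 with each material but overlapped in 1 library: it had 42.7, 33.1 and 43.5 CPM with DNAgel, 45.96, 40.9 and 40.7 CPM with GS, and 33.6, 32.0 and 31.6 CPM in Control, where DNAgel replicate 2 lay below Control replicate 1.

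**Figure D3:**
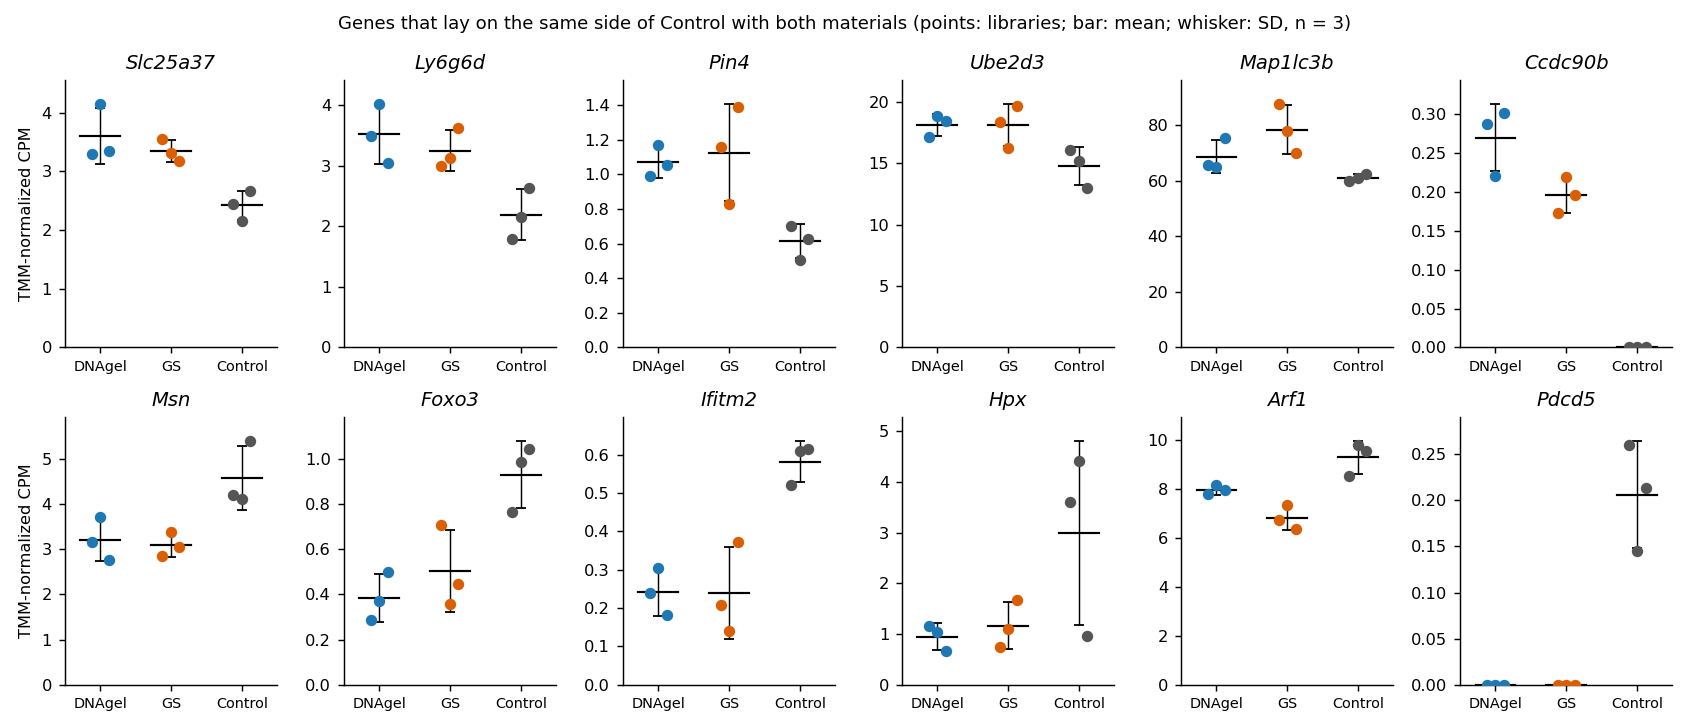
TMM-normalized CPM of 12 genes in each library (points) with the group mean (bar) and SD (whisker, n = 3), for DNAgel, GS and Control from left to right. In the upper row the 6 material libraries lie above the 3 Control libraries; in the lower row they lie below, except for Hpx, where Control replicate 3 (0.962 CPM) lies among the material libraries.

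Ccdc90b and Pdcd5 were at 0 counts in all libraries of one side and above 0 in all libraries of the other. Ccdc90b, a mitochondrial coiled-coil protein, had 0.287, 0.220 and 0.301 CPM with DNAgel, 0.173, 0.218 and 0.196 CPM with GS, and 0 in all 3 Control libraries. Over the groups these were 86 counts with the materials and 0 in Control. In each of the 9 libraries 4 was the commonest count other than 0, so a count of 0 was taken to allow 3 such units, or 12 counts, over a group, and Ccdc90b was at least 4.09-fold higher with the materials, for counting error only. Pdcd5, a protein linked to programmed cell death, was at 0 in all 6 material libraries and had 0.260, 0.145 and 0.214 CPM in Control. These were 0 counts against 43, at least 6.27-fold lower with the materials. Ccdc90b passed the filter on low values only through the material libraries and Pdcd5 only through Control, so that a difference was built into their entry and these bounds and p-values are descriptions. For a gene at 0 on the other side, any 3 of the 6 material libraries let it pass, while all 3 Control libraries were needed, and 13 of the genes tested were at 0 in Control against 1 at 0 with the materials. Both had an adjusted p of 0.400 by edgeR. DESeq2 gave adjusted p values of 0.00223 for Ccdc90b and 0.103 for Pdcd5, and limma on log2(FPKM + 0.1) gave 0.0389 for Pdcd5. Among the other genes that were higher at an unadjusted p under 0.05 with each material, Rpa3, a subunit of replication protein A, Snrpf, a core protein of the spliceosome, RGD1306063 and Calhm6 were also at 0 in Control, but each was at 0 in 1 or 2 material libraries too, and Sugt1, a cochaperone, and Uqcc3, an assembly factor of respiratory complex III, stood at 0.570 CPM or below in every library.

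At an unadjusted p under 0.05 with each material, Msn and Actg1, which act in the cell cortex, lay lower. Msn encodes moesin, which ties actin filaments to the plasma membrane. It had 3.16, 3.71 and 2.76 CPM with DNAgel, 2.85, 3.39 and 3.06 CPM with GS, and 4.20, 4.12 and 5.38 CPM in Control. The groups did not overlap, and the pooled log2 fold change was −0.54 ± 0.16 (95% interval −0.85 to −0.22; adjusted p = 0.630, edgeR), with −0.51 for DNAgel and −0.56 for GS. Actg1, cytoplasmic gamma actin, had 9.55, 13.7 and 8.42 CPM with DNAgel, 8.95, 10.5 and 10.6 CPM with GS, and 13.2, 13.98 and 16.4 CPM in Control. Only DNAgel replicate 2 reached the Control range, at a pooled log2 fold change of −0.50 ± 0.15 (adjusted p = 0.630, edgeR). Another, less abundant entry named Actg1, which may share reads with it, had −0.33 with DNAgel and −0.79 with GS (pooled adjusted p = 0.851, edgeR). Arf1, a small GTPase of vesicle transport, had 7.78, 8.16 and 7.94 CPM with DNAgel, 6.75, 7.33 and 6.38 CPM with GS, and 8.54, 9.78 and 9.54 CPM in Control, with no overlap (−0.33 ± 0.12), though DNAgel alone did not reach an unadjusted p under 0.05 (0.124, edgeR). Itgb1, the beta chain of several adhesion receptors, had 2.96, 3.83 and 2.64 CPM with DNAgel, 2.56, 2.76 and 2.01 CPM with GS, and 4.28, 3.87 and 4.17 CPM in Control. It did not overlap either (−0.57 ± 0.17; adjusted p = 0.630, edgeR), and DNAgel alone again did not reach that threshold.

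Other genes on the low side had other roles. Foxo3, a transcription factor of stress and survival, had 0.287, 0.373 and 0.497 CPM with DNAgel, 0.708, 0.359 and 0.444 CPM with GS, and 0.764, 0.985 and 1.04 CPM in Control (−1.08 ± 0.32). Ifitm2, an interferon-induced membrane protein that restricts virus entry, had 0.239, 0.305 and 0.181 CPM with DNAgel, 0.207, 0.140 and 0.373 CPM with GS, and 0.520, 0.609 and 0.615 CPM in Control (−1.27 ± 0.44). Neither overlapped, and both rest on few reads, with 162 and 87 counts over the 6 material libraries and 196 and 122 over the 3 Control libraries. Wbp2, a transcription coactivator, had 5.05 to 6.91 CPM with the materials and 6.84 to 9.39 CPM in Control (−0.46 ± 0.15), and Tmem140, a transmembrane protein, 0.203 to 0.415 CPM with the materials and 0.391 to 0.842 CPM in Control (−1.24 ± 0.42). Each overlapped in 1 library. Hpx, the plasma heme-binding protein hemopexin, had 1.16, 1.03 and 0.663 CPM with DNAgel, 0.743, 1.09 and 1.67 CPM with GS, and 3.61, 4.42 and 0.962 CPM in Control. The Control libraries disagreed, with replicate 3 inside the range of the materials, and the pooled log2 fold change was −1.50 ± 0.39 (adjusted p = 0.436, edgeR). Without Control replicate 3 it was −1.92 (adjusted p = 0.0327, edgeR). With no filter on low values the adjusted p by edgeR was 1.26e-05, in a setting whose p-values may be too small.

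The most abundant gene among these 27 was ENSRNOG00000069200, protein coding by the table and with no symbol (chromosome 1, 158237191 to 158238471, + strand). It had 422, 349 and 410 CPM with DNAgel, 484, 381 and 325 CPM with GS, and 532, 522 and 450 CPM in Control, so that GS replicate 1 alone reached the Control range (−0.34 ± 0.13; adjusted p = 0.767, edgeR). ENSRNOG00000066505, a pseudogene by the table, ranged from 0.925 to 2.11 CPM with the materials and from 2.08 to 3.17 CPM in Control (−0.70 ± 0.27).

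Several of the 27 genes look like copies of another gene, so that their reads could be split between near-identical sequences, and their values are uncertain. ENSRNOG00000047067, which resembles ribosomal protein L10a, had 2.98, 3.45 and 3.46 CPM with DNAgel, 3.25, 2.90 and 1.94 CPM with GS, and 1.01, 1.87 and 1.76 CPM in Control. GS replicate 3 was its lowest material library and still lay above Control (0.94 ± 0.24). The adjusted p by edgeR was 0.400, and 0.0354 with no filter, where p-values may be too small. AC121415.1, which resembles ribosomal protein L7, was on the same side (0.99 ± 0.33). ENSRNOG00000060310, which resembles prohibitin, had 0.574, 0.457 and 0.301 CPM with DNAgel, 0.276, 0.406 and 0.320 CPM with GS, and 1.65, 0.985 and 0.695 CPM in Control, without overlap (−1.52 ± 0.34; adjusted p = 0.400, edgeR). AC140988.1, which resembles Tim23, a channel of the inner mitochondrial membrane, was on the low side (−0.996 ± 0.336). Gm5471, a predicted pseudogene outside these 27, lay below Control in all 6 material libraries (−0.35 ± 0.14).

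A mean over both materials can come from one of them. Hspa5, the endoplasmic reticulum chaperone BiP, had 7.40, 6.81 and 6.22 CPM with DNAgel, 1.02, 2.08 and 2.35 CPM with GS, and 7.20, 7.84 and 5.80 CPM in Control. Only GS lay apart. Hspa5 was among the 29 genes (0.814%) that were higher with DNAgel than with GS at an adjusted p under 0.05 (log2 1.91; adjusted p = 0.00262, edgeR), against 0 lower (0%). Fos, an immediate-early transcription factor, had 2.90, 3.66 and 2.56 CPM with DNAgel, 0.466, 1.09 and 0.284 CPM with GS, and 3.39, 3.26 and 2.58 CPM in Control, with DNAgel inside the Control range or close to it and GS below. Apoe, apolipoprotein E of monocytes and macrophages, had 9.57 to 11.5 CPM with DNAgel, 0.829 to 3.27 CPM with GS and 8.84 to 9.79 CPM in Control. Zfp36, an RNA-binding protein that shortens messages of cytokines, and Socs3, an inhibitor of cytokine signaling, had log2 fold changes of 0.15 and −0.29 with DNAgel and of −1.85 and −2.53 with GS. Furin, a proprotein convertase, showed the other case: it had 8.02, 6.65 and 7.46 CPM with DNAgel, 11.4, 9.96 and 11.6 CPM with GS, and 13.1, 12.2 and 11.2 CPM in Control. Actb, cytoplasmic beta actin, had 40.3, 32.4 and 38.4 CPM with DNAgel, 53.3, 44.3 and 58.1 CPM with GS, and 58.7, 60.5 and 54.6 CPM in Control. For both, the DNAgel libraries lay below all others, while GS overlapped Control; DNAgel against GS had adjusted p values of 0.102 for Furin and 0.178 for Actb by edgeR.

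Gene lists were read by their counts and medians beside those of all 3561 genes, whose median pooled log2 fold change was −0.05. By edgeR over these genes and all 9 libraries, no list had a member at an adjusted p under 0.05 in the pooled comparison, and the counts that follow are at an unadjusted p under 0.05, which 2.02% of all genes passed upward and 3.93% downward. Other settings called a few listed genes, all lower. DESeq2 called Hspa5 (adjusted p = 0.0268) and limma none. With no filter on low values edgeR called Hspa5, Fos and Apoe (adjusted p = 0.000163, 0.000595 and 0.000363), but p-values in that setting may be too small. Without GS replicate 2 edgeR called Fos (adjusted p = 0.02197). Without GS replicate 3 it called Csf1r, a receptor of monocytes (adjusted p = 0.0101), which was at 0 in both remaining GS libraries.

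Red cell genes lay near Control. All 8 globin genes tested had a positive pooled log2 fold change, 6 of them with library totals alone, with a median of 0.18 (0.06 with library totals alone) and none at an unadjusted p under 0.05, and globins make up most of the counts that set the scale. Of 25 genes of the red cell membrane and skeleton 0 passed in either direction (median −0.02). Of 22 genes of heme synthesis and iron 1 was higher (Slc25a37) and 4 were lower, among them 2 of the 3 entries named Ftl1, ferritin light chain (−0.36 and −0.42, with the third at −0.29), which may share reads, and Fth1, ferritin heavy chain (−0.28). Ferritin stores iron. Fth1 had 722, 924 and 1027 CPM with DNAgel, 787, 871 and 701 CPM with GS, and 945, 949 and 1159 CPM in Control, so that DNAgel replicate 3 lay inside the Control range.

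Ribosomal proteins and nuclear genes of oxidative phosphorylation lay slightly above the median of all genes. The 940 genes with a mean FPKM of at least 1 had a median of 0.04 themselves. The large-subunit and oxidative phosphorylation medians lay near that value, and whether these lists differ from other genes of like abundance was not tested. Of 57 large-subunit ribosomal proteins 3 were higher and 0 lower (median 0.06, 39 positive), and of 35 small-subunit proteins 3 were higher and 0 lower (median 0.13, 28 positive). Examples are Rpl19 (0.28) and Rps3a (0.28), each with an adjusted p of 0.767 to 0.782 by edgeR. Of 66 nuclear genes of oxidative phosphorylation 3 were higher and 0 lower (median 0.07, 44 positive), among them Ndufa6 (0.67) and Ndufb6 (0.76) of complex I. The 13 genes encoded in mitochondrial DNA went the other way, with 1 positive, a median of −0.23 and 0 past the unadjusted threshold. Their summed level overlapped widely, at 807 to 1552 CPM with the materials and 1131 to 1682 CPM in Control. With library totals alone, which move all genes down, the medians of the large-subunit, small-subunit and oxidative phosphorylation lists were −0.06, 0.0028 and −0.05, with 25, 18 and 23 positive members. Relative to the median of all genes they were 0.11, 0.18 and 0.12 with TMM and 0.11, 0.18 and 0.13 with library totals alone.

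The actin cytoskeleton list leaned to the low side. Of 33 genes tested 0 were higher and 9 lower, with a median of −0.29, of −0.10 with DNAgel and of −0.31 with GS. The summed level did not overlap: it was 220 to 245 CPM with DNAgel, 244 to 250 CPM with GS and 254 to 272 CPM in Control. No other list had sums without overlap, and the sums were not tested. Much of the gap between DNAgel and Control lay in Actb alone. With library totals alone the median was −0.42, with the same number of members on the low side. Of the 9, Msn and Actg1 had log2 fold changes of −0.51 and −0.46 with DNAgel and −0.56 and −0.54 with GS. Actb had −0.64 with DNAgel and −0.16 with GS. Capzb and Flna, which cap and crosslink actin filaments, had −0.21 and −0.02 with DNAgel and −1.59 and −1.31 with GS. Their differences between DNAgel and GS of 1.38 and 1.29 on the log2 scale passed the test (adjusted p = 0.0351 and 0.0184, edgeR). The rest of the 9 had −0.15 to −0.01 with DNAgel and −1.19 to −0.63 with GS. Most of the 9 thus lay low mainly through GS. Of the 33 genes, 4 were lower and 1 higher with DNAgel, and 10 lower and 1 higher with GS, at an unadjusted p under 0.05.

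Platelet genes gave no common shift. Of 25 platelet genes 0 were higher and 1 lower (median −0.07), and of 22 genes of platelet activation signaling 0 were higher and 4 lower (median −0.10). In the single comparisons 0 of these 22 were lower with DNAgel and 4 with GS, while the medians were −0.17 and −0.02. Clec1b, the platelet receptor CLEC-2, ranged from 40.03 to 62.5 CPM with the materials and from 35.1 to 41.5 CPM in Control (0.26). Coagulation and fibrinolysis left 3 of 17 genes to test, with 0 in either direction. The 5 hemostatic genes that the study names did not pass the filter on low values. F5, coagulation factor V, had 157 counts over the 6 material libraries and 73 over the 3 Control libraries, or 12 to 32 counts a library with the materials and 20 to 31 in Control. Vav2, Vav3, Dgka and Plcg2 had 4, 7, 11 and 4 counts with the materials and 11, 8, 0 and 0 in Control, at or below the 12 counts that a count of 0 allows, so that no difference was detectable at this depth.

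Immediate-early genes were low in the pooled comparison through GS. Of 21 immediate-early genes 0 were higher and 6 lower, with a pooled median of −0.67 that is made of 0.16 with DNAgel and −1.52 with GS, and the summed level was 41.6 to 46.2 CPM with DNAgel, 21.5 to 26.7 CPM with GS and 37.6 to 42.5 CPM in Control. Of 14 endoplasmic reticulum chaperones and stress genes 0 were higher and 4 lower (median −0.63, with −0.23 for DNAgel and −0.73 for GS). Hsp90b1, the chaperone GRP94, was the member without overlap: it had 0.813, 0.881 and 0.783 CPM with DNAgel, 0.415, 0.484 and 0.462 CPM with GS, and 1.19, 1.22 and 1.002 CPM in Control (−0.89 ± 0.24; adjusted p = 0.436, edgeR). Pdia6, a protein disulfide isomerase, was the other, at 0 to 0.316 CPM with the materials and 0.382 to 0.478 CPM in Control. Of 7 inflammatory signaling genes 0 were higher and 3 lower (median −0.38, with −0.29 for DNAgel and −0.51 for GS).

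**Figure D4:**
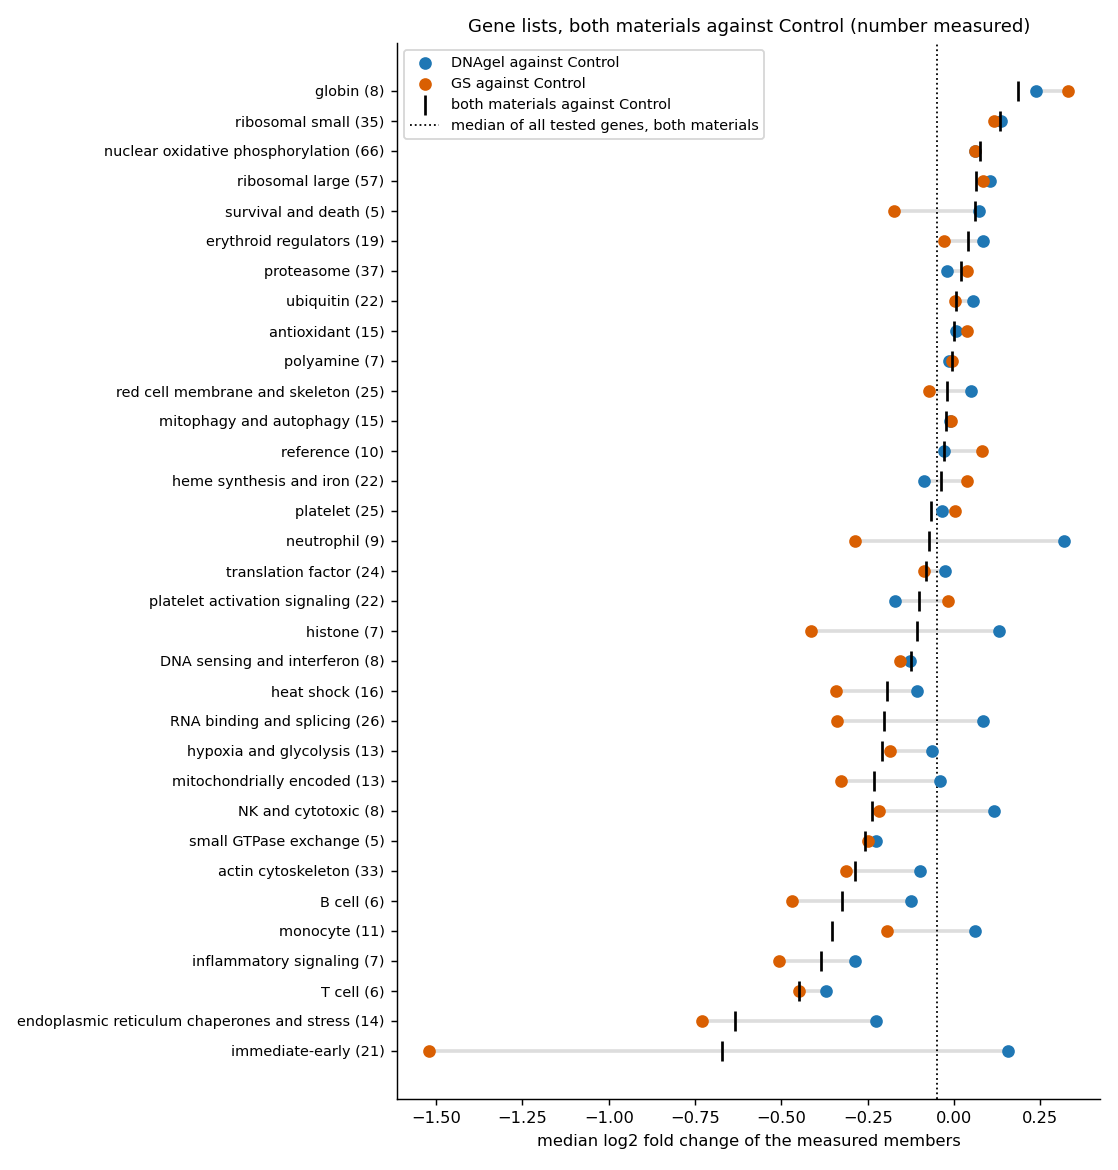
Median log2 fold change of the measured members of each gene list with at least 5 genes tested (number in brackets), for DNAgel against Control (blue), GS against Control (orange) and both materials against Control (black bar). The dotted line is the pooled median of all genes tested, −0.05; the immediate-early list has the widest gap between the materials, 0.16 and −1.52.

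White cell markers showed wide spreads between libraries. Of 9 neutrophil genes 1 was higher and 0 lower (median −0.07). It was S100a9, a calcium-binding protein of neutrophil granules and cytosol, with 8.61, 7.99 and 8.39 CPM with DNAgel, 6.65, 6.12 and 8.44 CPM with GS, and 5.21, 6.20 and 6.57 CPM in Control, so that DNAgel lay above Control and GS overlapped it. Of 11 monocyte genes 0 were higher and 2 lower (median −0.35, with 0.06 for DNAgel and −0.19 for GS). The summed monocyte level was 84.02 to 99.8 CPM with DNAgel, 63.4 to 75.8 CPM with GS and 73.3 to 102 CPM in Control. Of 6 T cell, 6 B cell and 8 NK cell genes 0 passed in either direction, and the summed T cell level was 1.16 to 1.95 CPM with the materials and 1.83 to 2.49 CPM in Control. The part of these cell type levels in any gene difference above was not tested.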

How the data were processed

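Poly(A) RNA was sequenced with strand marking and molecular identifiers. The authors deposited 1 table with, for each gene and library, an estimated count, not scaled between libraries, and an FPKM value, scaled by the authors for length and library total. Tools named by the submitters are HISAT2 2.0.4, StringTie 1.3.4d and cutadapt 1.9, and, without a version, UMI-tools, edgeR and DESeq2. A mouse genome build is named although the identifiers are of rat, so coordinates are the table's, without a build. Every value column entered. Of the names, 1285 are identifiers alone and 146 occur more than once.

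Counts were tested with edgeR 4.0.16 in R 4.3.3 (TMM, robust quasi-likelihood, 9 libraries and 3 group means in 1 fit, Benjamini-Hochberg at 0.05), for the mean of DNAgel and GS minus Control. Standard errors are log2 fold changes over the signed root of F, and 95% intervals reach 1.96 of them to each side. Exact tests used all 84 splits of 6 against 3. Alternatives were DESeq2 1.42.0, limma 3.58.1, other filters and scalings, a replicate block and leaving out each library. The scripts were tested on simulated data.

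Deviations of same-numbered GS and Control libraries from their group means correlated at 0.486, 0.372 and 0.266. As some matching must come out best, these values do not establish a pairing, and no source gives it. DNAgel and Control gave 0.0546, −0.148 and −0.448.

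The comparison and the gene lists were chosen with earlier results of these data known. Named by rule were up to 10 genes in each direction with the largest statistic among those whose FPKM averaged 1 or more, with a symbol, the same sign with both materials and no overlap; up to 3 members of each list with the largest statistic and that level; genes called in the pooled comparison; and the 5 genes that the study names. Some genes that these rules reach are not reported here. The others were chosen after their values were seen: Ccdc90b, Pdcd5, Rpa3, RGD1306063, Snrpf, Calhm6, Msn, Foxo3, Ifitm2, Wbp2, Tmem140, Hpx, Zfp36, Socs3, Csf1r, S100a8, Furin, Fth1, Sugt1, Uqcc3, Capzb, Flna, Itgb1, Hsp90b1, Pdia6, Alas2, Pf4, the genes given by clone name and those given by identifier except ENSRNOG00000067483.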

Additional observations from a re-analysis of the deposited data

Results flagged for a closer look

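The 2 materials differed from each other, by the test of DNAgel against GS in edgeR, in 8 of the genes named for the pooled comparison, which makes the pooled value a mean of unequal effects for them. On the log2 scale DNAgel lay above GS by 1.91 for Hspa5, 2.29 for Fos, 2.25 for Apoe, 2.01 for Zfp36, 2.24 for Socs3, 1.38 for Capzb, 1.29 for Flna and 8.93 for ENSRNOG00000067483, where GS was at 0 counts and the size is set by the fit. Adjusted p values were between 0.00024 and 0.0351.

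In 4 genes 1 of the 6 material libraries lay far from the others, a gap that chance gives in about 1 of 20 such groups. About 72 named genes and some library measures were looked at, so that a few such gaps are expected by chance. DNAgel replicate 2 was the lowest for Car2, a carbonic anhydrase of red cells (656 CPM). GS replicate 3 was the lowest for ENSRNOG00000047067 (1.94 CPM). DNAgel replicate 1 was the highest for Tmem128 (3.28 CPM), and GS replicate 1 was the highest for Tmem140 (0.415 CPM).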

How the results depend on the processing

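Counts at an adjusted p under 0.05 were low in all settings. Those with no filter rest on p-values that may be too small, as said above. Genes higher in the pooled comparison were 0 by edgeR, 2 by DESeq2, 1 by limma with a pseudocount of 0.01 and 1 with no filter. Genes lower were 1 by edgeR, 4 by DESeq2, 2 by limma with a pseudocount of 0.1, 2 with a pseudocount of 1, 7 with no filter, 0 with 2 group means, 0 with the replicate block and 0 to 3 when 1 library was left out. Genes moved the same way with both materials were 2 by DESeq2, 1 by limma with each of the 3 pseudocounts, 2 with no filter and 0 to 1 when 1 library was left out; with the replicate block and with the other scalings they stayed at 0. DNAgel against Control gave 5 by DESeq2, 2 by limma with a pseudocount of 0.01, 1 with no filter and 2 over genes with a mean FPKM of at least 1. GS against Control gave 6 higher and 46 lower by DESeq2, 5 and 41 with no filter, 0 and 11 over genes with a mean FPKM of at least 1, 0 higher with library totals alone, 14 and 10 lower by limma with pseudocounts of 0.01 and 1, and 0 to 2 higher and 4 to 24 lower when 1 library was left out. The replicate block gave 0 and 9, and in the GS and Control libraries alone, a fit chosen after seeing the data, 0 and 0 with the block and 0 and 6 without.

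At an unadjusted p under 0.05 with each material, 47 were higher and 25 lower with no filter, 5 and 5 over genes with a mean FPKM of at least 1, 7 and 24 with library totals alone, 32, 21 and 39 lower by limma with pseudocounts of 0.1, 0.01 and 1, and 11 to 28 higher and 5 to 22 lower when 1 library was left out. Without overlap lay 61 above and 132 below with no filter, 11 and 9 over genes with a mean FPKM of at least 1, 15 and 87 with library totals alone, and 54 to 98 above and 66 to 127 below when 1 library was left out. The pooled comparison at an unadjusted p under 0.05 had 25 higher and 227 lower with library totals alone and 76 and 62 with 2 group means. No source says whether the replicate numbers pair the DNAgel libraries with the others, so the block may join libraries that do not belong together. The block took the adjusted p of ENSRNOG00000067483 to 0.0629, and 2 group means to 0.997, at a log2 fold change of −0.82.

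Of the named genes, Alas2 reversed by limma (−0.0509, −0.0509 and −0.0508 with pseudocounts of 0.1, 0.01 and 1) and with library totals alone (−0.0582), and Pf4, at −0.134 to 0.0259 when 1 library was left out, without Control replicate 3. The share of hemoglobin counts differed by 0.151 to 0.564 percentage points when 1 library was left out, with 0.527 and an exact permutation p of 0.0357 without DNAgel replicate 2. The number of genes with a count above 0 differed by −1025 to −269 in the same settings. Hemoglobin took most of the depth, which leaves low genes such as Pdcd5 with 43 counts over a group.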

Other observations

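Among gene groups not described above some lay close to the median of all genes, −0.05, and others below it. Of 37 proteasome genes 0 passed an unadjusted p under 0.05 in either direction (median pooled log2 fold change 0.02), and of 15 antioxidant genes 0 did (median −0.00). Of 13 genes of hypoxia and glycolysis 0 passed in either direction, with a median of −0.21 and 2 positive members. Of 16 heat shock genes 1 was higher and 2 were lower (median −0.19, 3 positive), and of 5 exchange factors of small GTPases 0 were higher and 1 lower (median −0.26). Of 26 genes of RNA binding and splicing 0 were higher and 3 lower (median −0.20), among them Hnrnpa1, a splicing regulator, with 1.88, 2.25 and 2.49 CPM with DNAgel, 2.30, 2.87 and 2.33 CPM with GS, and 3.19, 2.78 and 3.30 CPM in Control, where GS replicate 2 alone reached the Control range. Of 24 translation factors 1 was higher and 1 lower (median −0.08, 7 positive). The higher one was Eif3k, a subunit of initiation factor 3, with 4.26, 3.88 and 4.85 CPM with DNAgel, 5.29, 5.51 and 5.53 CPM with GS, and 3.62, 3.999 and 3.03 CPM in Control. Of 8 genes of DNA sensing and interferon 1 was higher and 0 lower. It was Isg15, an interferon-induced ubiquitin-like protein, with 1.39, 0.796 and 1.16 CPM with DNAgel, 1.09, 1.25 and 1.07 CPM with GS, and 0.413, 0.768 and 0.948 CPM in Control. DNAgel replicate 2 lay inside the Control range.

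Deviations of DNAgel replicates 1, 2 and 3 from their group mean correlated best with those of GS replicates 3, 1 and 2 (0.415, 0.417 and 0.541) and of Control replicates 3, 1 and 2 (0.394, 0.144 and 0.606), over 940 genes. As 3 deviations from a common mean add up to 0, some matching of the numbers must come out best.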
